A study of Homo sapiens with 10 samples.

Results

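The experiment set an siRNA against ID1 beside a control siRNA in H1650, a human non-small cell lung carcinoma line with a mutant EGFR. Its 4 arrays, of 10 in the series, were chosen by title as the H1650 arrays with a stimulus: ID1 siRNA with nicotine, ID1 siRNA with EGF, control siRNA with nicotine and control siRNA with EGF. Every culture was deprived of serum for 48 h before the stimulus, and nicotine (1 µM) or EGF (100 ng/ml) was given for 18 h. The 4 stimulated arrays of A549, a k-Ras mutant carcinoma line treated the same way, served as the comparison line, and the unstimulated arrays of both lines were not used. Each condition had 1 array, and nothing in the labels says whether the cultures were raised separately. The ID1 siRNA is 1 reagent whose sequence is not given in the sources used here, so effects through ID1 and effects of that reagent alone cannot be told apart.

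ID proteins are helix-loop-helix proteins without a DNA-binding region. They pair with the E proteins, which bind DNA at E-boxes, and so keep them and their tissue-specific partners off DNA. ID1 is an immediate target of growth factor and BMP signals, is best known for holding back differentiation, and in lung carcinoma cells is induced by nicotine and EGF. The siRNA arrays ask which transcripts depend on it when either stimulus is present.

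ID1 itself had signals of 881 and 1031 with ID1 siRNA, under nicotine and EGF in that order, against 4964 and 5121 with control siRNA. Signals here are linear MAS5 intensities, and every list of 2 signals below gives nicotine first and EGF second. Both ID1 siRNA values lay far below both control values, and ID1 fell 5.29-fold (log2 change -2.40 ± 0.11, moderated SE, adjusted p = 0.000106 by limma). The stimulus defined the pair, so the error of a gene starts from how far its siRNA effect differed between nicotine and EGF, pooled over H1650 and A549. Limma then draws this error towards that of genes of like signal. A value after ± can therefore be smaller than the spread of the 2 H1650 pairs.

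The epithelial identity in the label was borne out by the markers. All 9 simple epithelial markers, keratins and junction proteins among them, were measured, with a summed signal of 116417 and 127711 with ID1 siRNA and 120033 and 114083 with control siRNA, and 0 of 9 passed the test. Of 19 markers of other cell types 4 were bright enough to test, and 0 of them passed. The summed signal of the fibroblast markers was 1259 and 941 with ID1 siRNA and 797 and 767 with control siRNA, and that of the endothelial markers 992 and 847 with ID1 siRNA and 558 and 483 with control siRNA. Most of the first sum was the collagen COL1A1, with 998 and 590.2 with ID1 siRNA against 534 and 501 with control siRNA. The second sum included the receptor TEK, with 557 and 437 with ID1 siRNA against 205 and 283 with control siRNA, and the cadherin CDH5, with 247 and 148 with ID1 siRNA against 79.1 and 9.88 with control siRNA. Neither TEK nor CDH5 was tested, because their means over both lines lay below the filter, and the part of these markers in the results was not tested. Median signals of the 4 arrays were between 73.8 and 79.6, the GAPDH signal of 3′ over 5′ probes, which tracks degradation of RNA, between 0.904 and 0.932, and the hybridization spike bioB was at 990 and 1078 on the ID1 siRNA arrays against 759 and 838 on the control arrays. What the brighter spike contributed was not tested.

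Of 12514 genes bright enough to test, 706 rose and 825 fell with ID1 siRNA at an adjusted p under 0.05 in limma, which is 5.64% and 6.59% of the genes tested. Each of these 1531 genes moved the same way under nicotine and under EGF. The test favours this, because disagreement between the pairs is its error, and 68.5% of all tested genes moved the same way. By the criterion that the labels give, a 2-fold change, 61 genes rose and 88 fell in both pairs, 0.487% and 0.703% of those tested. These p-values measure only the spread between single arrays of 2 stimuli, which may be technical. They lean on a prior variance that follows signal intensity: with a prior that ignores intensity 1 gene rose and 0 fell, although 2956 had an unadjusted p under 0.05. Counts over all genes therefore depend on this choice more than the values of single genes do.

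**Figure D1:**
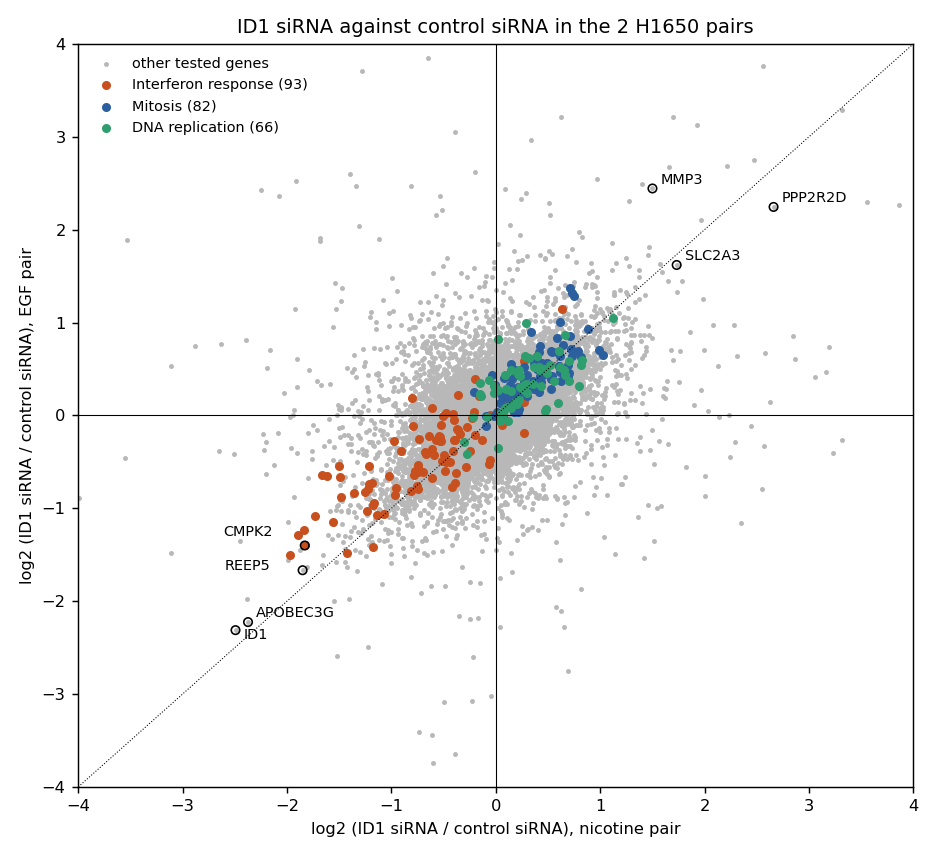
Log2 ratio of ID1 siRNA to control siRNA for each of the tested genes in the nicotine pair (x axis) and the EGF pair (y axis), with 2 genes beyond the axes left out. Interferon response genes (orange) lie mostly in the lower left and mitosis and DNA replication genes (blue, green) in the upper right, and the circled genes are described in the text.

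Within the ID family, ID1 was not alone in changing. ID3, a close relative of ID1 with the same partners, had 2565 and 2115 with ID1 siRNA against 3682 and 2779 with control siRNA, and fell by 0.46 ± 0.10 on the log2 scale. ID2 had 528 and 375 with ID1 siRNA against 492 and 520.4 with control siRNA, a change of -0.19 ± 0.17 that did not pass and whose sign differed between the pairs. ID4 had 366 and 332 with ID1 siRNA against 210.3 and 236 with control siRNA, without overlap, but its change of 0.65 ± 0.24 did not pass either. Of the 3 E proteins 1 passed: TCF3, which encodes E12 and E47, had 913 and 914 with ID1 siRNA against 593 and 602 with control siRNA, and rose by 0.61 ± 0.13. Of 8 further TCF3 probe sets 6 had mean changes between 0.37 and 1.51, and the other two, both dim, had -0.08 and -0.15. Of 10 HES, HEY, BHLHE and related factors 0 passed. The E-box CANNTG on either strand, within 250 bases before and 50 after the start in RefSeq (GRCh38.p14), was in 57.0% of the promoters of genes that rose and 57.4% of those that fell, against 60.1% of the 10190 tested promoters. The form CAGCTG, counted within CANNTG, was in 17.7% of those that rose, 16.01% of those that fell and 16.9% of all, and CAGGTG in 16.7% of those that rose, 17.8% of those that fell and 18.4% of all.

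Genes induced by interferon made up the list with the most falls. All lists here were chosen with earlier results of these data known, so their counts beside all genes describe the lists and are not a test. Type I interferon signals through its receptor to STAT and IRF factors, which bind the interferon-stimulated response element and switch on many antiviral genes. Of 93 interferon response genes tested 50 fell and 0 rose, beside 6.59% falling and 5.64% rising among all genes, and the median log2 change was -0.50, beside -0.01 over all tested genes. The median was -0.61 under nicotine and -0.48 under EGF. In both pairs 77 of the 93 genes were lower, beside 4412 of all 12514 tested genes. Without the H1650 nicotine pair 31 fell, and without the stimulus as a block 20.

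The antiviral effectors, proteins that block steps of viral replication, accounted for 34 of the 50 falls among 47 tested, with a median of -0.84. CMPK2, a mitochondrial nucleotide kinase, had 2830 and 1584 with ID1 siRNA against 10067 and 4185 with control siRNA, and fell by 1.62 ± 0.13. RSAD2 (viperin), which makes a chain-terminating nucleotide, had 3029 and 2019 with ID1 siRNA against 11276 and 4932 with control siRNA. XAF1, a partner of the apoptosis inhibitor XIAP, had 2477 and 1410 with ID1 siRNA against 6673 and 3940 with control siRNA. In each of these genes both ID1 siRNA values lay below both control values, and under either siRNA the EGF array was dimmer than the nicotine array. Genes named here passed on these same signals, which favours such separation, and its share over all tested genes was not counted. IFI44L had 2570 and 1429 with ID1 siRNA against 9189 and 3365 with control siRNA, and fell by 1.54 ± 0.40. The GTPase MX1, which traps viral nucleocapsids, had 7663 and 4940 with ID1 siRNA against 16098 and 10308 with control siRNA, a fall of 1.07 ± 0.11.

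Falls reached the sensing end of the pathway too. RIGI, the cytosolic sensor of 5′ triphosphate RNA, had 1550 and 1255 with ID1 siRNA against 6082 and 3556 with control siRNA, and fell 3.33-fold (log2 change -1.74 ± 0.13, adjusted p = 0.000671 by limma). The DNA sensor IFI16 had 2997 and 2831 with ID1 siRNA against 5140 and 4299 with control siRNA, a fall of 0.69 ± 0.12. IFIH1 (MDA5), the sensor of long double-stranded RNA, had 3371 and 1998 with ID1 siRNA against 5664 and 2886 with control siRNA, so its groups overlapped although it fell within each pair, by 0.64 ± 0.16 in all. Of 9 sensors tested 3 fell.

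Of 18 receptors and transcription factors 6 fell. IFNAR2, a chain of the type I interferon receptor, had 505 and 495 with ID1 siRNA against 887 and 870.5 with control siRNA, and fell by 0.81 ± 0.13. IRF9, the DNA-binding part of the ISGF3 complex, had 1383 and 1021 with ID1 siRNA against 1848 and 1746 with control siRNA, and fell by 0.60 ± 0.14. IRF2 fell by 1.15 ± 0.25 and USP18, which removes ISG15 and damps the receptor, by 1.03 ± 0.19, both more under nicotine (-1.67 and -1.51) than under EGF (-0.64 and -0.54). In antigen presentation 7 of 16 genes fell. HLA-F, a class I heavy chain, had 4084 and 3847 with ID1 siRNA against 6895 and 6515 with control siRNA, a fall of 0.76 ± 0.09. TAP1, the peptide transporter, fell by 0.71 ± 0.12, the immunoproteasome subunit PSMB9 by 0.64 ± 0.11 and the proteasome activator subunit PSME1 by 0.50 ± 0.10. None of the 3 guanylate-binding protein genes tested passed, and GBP1 had 6705 and 2772 with ID1 siRNA against 8200 and 4070 with control siRNA, a change of -0.42 ± 0.25.

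**Figure D2:**
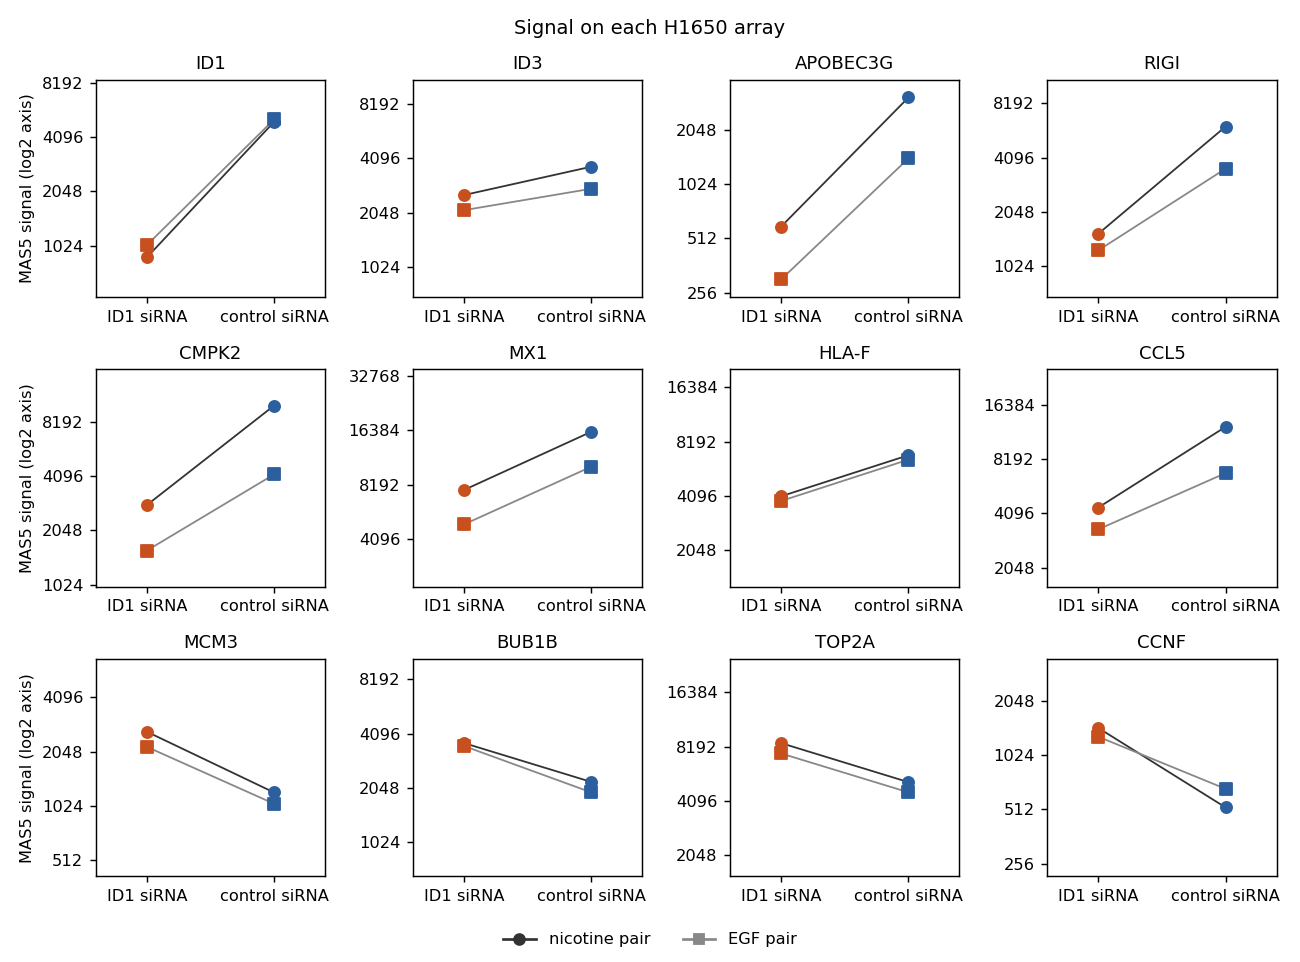
MAS5 signal (log2 axis, each panel spanning 16-fold) of 12 genes on the 4 H1650 arrays, ID1 siRNA at the left of each panel and control siRNA at the right, with a line joining the arrays of 1 stimulus (circles nicotine, squares EGF). ID1, ID3, APOBEC3G, RIGI, CMPK2, MX1, HLA-F and CCL5 are lower and MCM3, BUB1B, TOP2A and CCNF higher with ID1 siRNA under both stimuli.

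Promoters of some of these genes are shown, with letter matches to the element to which interferon-activated factors bind. Searched as GAAANNGAA on both strands, it was in 25 of 42 promoters of the interferon genes that fell (59.5%), against 6.3% of all 10190 tested promoters and 10.1% of those of all genes that fell. Since the list was assembled from interferon-induced genes, this share describes the list. A letter match is not a measured binding site. The windows below are 60 bases of RefSeq promoter sequence (GRCh38.p14) around the first match, written 5′ to 3′ on the gene's strand, with matches in capitals.
RSAD2 (chr2:6865781-6865840, plus strand): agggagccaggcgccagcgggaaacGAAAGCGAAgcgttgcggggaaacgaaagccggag
IFI44L (chr1:78620259-78620318, plus strand): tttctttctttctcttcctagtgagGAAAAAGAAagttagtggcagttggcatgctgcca
IFIH1 (chr2:162318814-162318873, minus strand): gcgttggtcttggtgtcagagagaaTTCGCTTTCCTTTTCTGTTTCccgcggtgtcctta
TAP1 (chr6:32853803-32853862, minus strand): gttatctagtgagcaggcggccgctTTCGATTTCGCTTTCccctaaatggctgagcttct

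The window of RSAD2 holds a single match and that of IFIH1 a run of overlapping ones in the reverse orientation. These 4 genes fell by between 1.59 and 0.64 on the log2 scale.

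Of the 5 APOBEC3 deaminases tested 3 fell and 0 rose, beside 6.59% falling and 5.64% rising among all genes. This small list, too, was chosen with earlier results of these data known, so its share of falls is not independent evidence. With the mean of all probe sets 1 of 4 fell. These enzymes convert cytosine to uracil in single-stranded DNA, which restricts retroviruses, and APOBEC3B is also known for mutating tumour genomes. APOBEC3G had 594 and 303 with ID1 siRNA against 3082 and 1418 with control siRNA, and fell 4.93-fold (log2 change -2.30 ± 0.25, adjusted p = 0.00199 by limma). APOBEC3B had 3138 and 2841 with ID1 siRNA against 7991 and 7788 with control siRNA, and fell by 1.402 ± 0.09. APOBEC3C, with 159 and 146 with ID1 siRNA against 299.5 and 203 with control siRNA, fell by 0.69 ± 0.18. The genes of this family are alike in sequence, so probe sets may read more than 1 of them.

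In the NF-kB and cytokine list 5 of 38 genes fell and 2 rose, beside 6.59% falling and 5.64% rising among all genes, with a median of -0.28. Without the H1650 EGF pair 14 fell and 0 rose, and the median was -0.45 under nicotine and -0.05 under EGF. The chemokine CCL5, which draws T cells, had 4409 and 3337 with ID1 siRNA against 12338 and 6838 with control siRNA, a fall of 1.26 ± 0.14. IL18, a cytokine that acts on T and NK cells, had 1135 and 1110 with ID1 siRNA against 2250 and 2153 with control siRNA, a fall of 0.97 ± 0.10. The NF-kB subunit RELB fell by 0.93 ± 0.15, its inhibitor NFKBIA by 0.66 ± 0.11 and the cytokine LIF by 0.78 ± 0.11. CXCL5, a neutrophil chemokine, rose by 0.57 ± 0.15. CCL2, a monocyte chemokine, had 86.4 and 64.2 with ID1 siRNA against 59.4 and 19.2 with control siRNA and was called higher, but its control signals lie below the filter, so no fold is given. Of 10 complement genes 2 fell: factor B (CFB), by 0.93 ± 0.18, and C3, by 0.83 ± 0.12.

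In the opposite direction, genes of mitosis rose together. Cells build this programme in G2, when the MuvB complex with B-MYB and FOXM1 activates promoters at the CHR element, and proliferating cells carry more of these transcripts than resting ones. Of 82 mitosis genes tested 44 rose and 0 fell, beside 5.64% rising and 6.59% falling among all genes. In both pairs 75 of 82 were higher, beside 4166 of all 12514 tested genes. The median log2 change was 0.45, with 0.41 under nicotine and 0.44 under EGF. Without the H1650 nicotine pair 27 rose, and without the H1650 EGF pair 22. Rises came from every role: 6 of 14 kinases and checkpoint proteins, 7 of 13 kinesins, 11 of 20 kinetochore and centromere proteins, 8 of 15 condensin, cohesin and topoisomerase genes, and 12 of 20 spindle, midbody and anaphase-promoting complex genes.

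BUB1B, a spindle checkpoint kinase homologue, had 3631 and 3496 with ID1 siRNA against 2212 and 1936 with control siRNA, and rose by 0.78 ± 0.09. CHEK1, the kinase that stops cells with unfinished replication, had 2275 and 2099 with ID1 siRNA against 1408 and 1446 with control siRNA. The kinesin KIF20A, which acts in cytokinesis, had 2309 and 2579 with ID1 siRNA against 1407 and 995 with control siRNA, and rose by 1.04 ± 0.20, with 0.71 under nicotine and 1.37 under EGF. Groups did not overlap for any of these, but they were named because they passed on the same signals, which favours this. The share of such genes among all tested was not counted. SPC24, part of the NDC80 microtubule anchor, rose by 1.03 ± 0.17, CENPA, the centromeric histone, by 0.84 ± 0.16 and CENPF by 0.71 ± 0.11. TOP2A, which untangles sister DNA, had 8583 and 7522 with ID1 siRNA against 5219 and 4585 with control siRNA, and rose by 0.72 ± 0.11. The condensin subunit NCAPD2 rose by 0.84 ± 0.12 and separase (ESPL1), which opens cohesin, by 0.64 ± 0.10. Survivin (BIRC5) rose by 0.91 ± 0.13, the spindle protein TACC3 by 1.02 ± 0.15, the anaphase activator CDC20 by 0.70 ± 0.09 and HMMR by 0.68 ± 0.10. Further mitosis genes that rose were TTK (0.54 ± 0.11), PBK (0.49 ± 0.10), KIF22 (0.74 ± 0.12), KIF23 (0.73 ± 0.10), KIF4A (0.48 ± 0.12), CENPM (0.61 ± 0.12) and NCAPH (0.57 ± 0.13).

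Of 66 DNA replication genes tested 19 rose and 0 fell, beside 5.64% rising and 6.59% falling among all genes. Their median was 0.28, and 53 were higher in both pairs, beside 4166 of all 12514 tested genes. Without the H1650 nicotine or EGF pair 9 or 10 rose. In origin licensing, the loading of the MCM helicase, 7 of 15 rose. MCM3 had 2637 and 2174 with ID1 siRNA against 1215 and 1053 with control siRNA, and rose 2.12-fold (log2 change 1.08 ± 0.10). MCM5 and the loader CDC6 each rose by 0.57 ± 0.10 and MCM2 by 0.52 ± 0.10. At the fork CDC45 rose by 0.76 ± 0.13, GINS2 by 0.64 ± 0.10 and TIPIN by 0.55 ± 0.11. Clamp loader subunits RFC2 and RFC3 rose by 0.68 ± 0.13 and 0.47 ± 0.09, and the single-strand binding protein RPA1 by 0.53 ± 0.10. For nucleotide supply, TYMS, which makes thymidylate, had 15048 and 15237 with ID1 siRNA against 9901 and 9448 with control siRNA, a rise of 0.65 ± 0.14. RRM1, the large subunit of ribonucleotide reductase, rose by 0.47 ± 0.10 and CTPS1 by 0.54 ± 0.11.

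Among the regulators of the cycle, 13 of 35 genes rose and 3 fell, beside 5.64% rising and 6.59% falling among all genes. Without the H1650 nicotine pair 7 rose, without the H1650 EGF pair 8, and with the mean of all probe sets 6 rose and 0 fell. Cyclin F (CCNF) had 1446 and 1293 with ID1 siRNA against 525 and 665 with control siRNA, and rose 2.31-fold (log2 change 1.21 ± 0.15). CDK1, the mitotic kinase, had 11448 and 10508 with ID1 siRNA against 7211 and 5816 with control siRNA, a rise of 0.76 ± 0.13. Its partners CCNA2 and CCNB2 rose by 0.73 ± 0.09 and 0.68 ± 0.10, so that 9 of 16 cyclins and CDKs rose in all. Transcription factors of the cycle split: E2F8 (0.82 ± 0.13), E2F1 (0.56 ± 0.15), MYBL2 (B-MYB, 0.66 ± 0.15) and RBL1 (p107, 0.68 ± 0.15) rose, whereas E2F5 (-1.20 ± 0.19) and E2F3 (-0.73 ± 0.14) fell. E2F5 had 104 and 132 with ID1 siRNA against 293 and 248 with control siRNA. None of the 5 CDK inhibitors tested passed. CDKN1A (p21) had 3445 and 3941 with ID1 siRNA against 4815 and 4434 with control siRNA (-0.33 ± 0.11), and CDKN2D had 597 and 504 with ID1 siRNA against 326 and 258 with control siRNA (0.92 ± 0.47).

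Promoter windows of mitosis and replication genes are shown for the elements named above. The CHR, searched as TTTGAA on both strands, was in 29 of 39 promoters of the mitosis genes that rose (74.4%), against 9.87% of all tested promoters and 17.4% of those of all genes that rose. An E2F element, searched as TTTNNCGC on both strands, was in 9 of 18 promoters of the replication genes that rose, against 10.4% of all tested promoters. Across the whole lists, moved or not, the shares were 65.2% of 69 mitosis promoters and 40.4% of 57 replication promoters. Capitals mark the CHR in the first 4 windows and the E2F element in the others.
CENPA (chr2:26786013-26786072, plus strand): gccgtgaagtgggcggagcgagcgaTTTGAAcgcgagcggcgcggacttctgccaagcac
BUB1B (chr15:40161021-40161080, plus strand): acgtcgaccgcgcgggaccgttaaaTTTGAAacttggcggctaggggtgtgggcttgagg
HMMR (chr5:163460579-163460638, plus strand): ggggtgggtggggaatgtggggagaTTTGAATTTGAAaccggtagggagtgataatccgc
NCAPD2 (chr12:6493932-6493991, plus strand): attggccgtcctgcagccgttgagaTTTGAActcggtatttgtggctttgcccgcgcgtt
MCM3 (chr6:52284882-52284941, minus strand): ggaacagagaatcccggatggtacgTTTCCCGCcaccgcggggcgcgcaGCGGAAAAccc
GINS2 (chr16:85688951-85689010, minus strand): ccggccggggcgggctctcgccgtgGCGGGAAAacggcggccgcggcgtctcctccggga
TYMS (chr18:657589-657648, plus strand): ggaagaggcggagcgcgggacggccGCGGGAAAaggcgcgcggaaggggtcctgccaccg

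HMMR carries 2 adjacent CHR matches and MCM3 an E2F match in each orientation. A match here is a string of letters and not a measured binding site.

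The 15 genes that rose most, ranked by the smaller of the 2 pair changes, were a mixed set. PPP2R2D, a regulatory subunit of protein phosphatase 2A, had 1081 and 833 with ID1 siRNA against 171 and 176 with control siRNA, and rose 5.48-fold (log2 change 2.45 ± 0.20). A dimmer probe set of PPP2R2D did not follow, with 136 and 90.0 with ID1 siRNA against 137 and 125 with control siRNA. SLC2A3 (GLUT3), a high-affinity glucose transporter, had 4811 and 3383 with ID1 siRNA against 1447 and 1101 with control siRNA, and rose by 1.68 ± 0.15. Its other probe sets gave mean changes of 0.59 and 1.21, the same direction but less. MMP3 (stromelysin), a matrix metalloprotease, had 479 and 1772 with ID1 siRNA against 169 and 326 with control siRNA, and rose by 1.97 ± 0.41. FLRT2, an adhesion and guidance protein, had 1597 and 1138 with ID1 siRNA against 509.9 and 416 with control siRNA. GPNMB, a glycoprotein of lysosomes and melanosomes, had 3975 and 2152 with ID1 siRNA against 1439.6 and 613 with control siRNA. CCDC80, a secreted matrix protein, had 1201 and 998 with ID1 siRNA against 399.6 and 342 with control siRNA. NEURL1B, a ubiquitin ligase of Notch ligands, had 874 and 459 with ID1 siRNA against 293 and 149 with control siRNA. For all of these the ID1 siRNA signals stood above both control signals, which ranking by the same signals favours. The share of all tested genes with this order was not counted.

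The other 8 of the 15 had control signals below the filter, so their folds are bounds. A bound compares the mean with ID1 siRNA to the higher of the dim signal and the median of its array. P3H3, a collagen prolyl 3-hydroxylase, had 107 and 91.7 with ID1 siRNA against 10.7 and 9.36 with control siRNA, which is at least 1.29-fold higher. By the same rule TMEM225B was at least 1.36-fold higher, MPND at least 1.10-fold, TEX22 at least 1.01-fold, and the noncoding RNAs IKBKB-DT, LINC01279 and ZNF143-AS1 at least 1.67-fold, 1.49-fold and 1.18-fold. CLYBL, a mitochondrial lyase, had 94.7 and 57.1 with ID1 siRNA against 30.1 and 8.91 with control siRNA, and no fold is given for it.

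Leading falls other than ID1, APOBEC3G and RIGI included proteins of membranes and secretion. REEP5, which shapes the endoplasmic reticulum, had 1737 and 2002 with ID1 siRNA against 6268 and 6358 with control siRNA, and fell by 1.76 ± 0.11. A second bright probe set of REEP5 went slightly the other way, with 1306 and 1032 with ID1 siRNA against 1051 and 987 with control siRNA. GALNT7, which starts mucin-type O-glycans, had 2467 and 2518 with ID1 siRNA against 9838 and 7422 with control siRNA, and fell 3.43-fold (log2 change -1.78 ± 0.13). VAMP3, a vesicle SNARE of recycling endosomes, had 2156 and 2134 with ID1 siRNA against 6778 and 6028 with control siRNA, a fall of 1.58 ± 0.11. Further probe sets of GALNT7, of VAMP3 and of RIGI gave mean changes between -1.86 and -1.53, close to those of the brightest ones.

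SOCS2, a feedback inhibitor of cytokine and growth hormone receptors, had 399 and 535 with ID1 siRNA against 1151 and 1597 with control siRNA, and fell by 1.55 ± 0.10. FAM174A had 681 and 536 with ID1 siRNA against 1991 and 2135 with control siRNA, and TMEM150C 102 and 129 with ID1 siRNA against 531 and 506 with control siRNA. DSEL, a chondroitin sulfate epimerase homologue, had 294 and 442 with ID1 siRNA against 799 and 1198 with control siRNA, a fall of 1.44 ± 0.29. Groups were apart in each of these 4, which ranking on the same signals favours. How many of all tested genes were apart was not counted. EBI3, a subunit of IL-27 and IL-35, had 94.4 and 43.3 with ID1 siRNA against 271 and 261 with control siRNA, which is at least 3.08-fold lower. The kinase PKDCC, the arsenic methyltransferase AS3MT and the noncoding RNA LINC01504 were at least 1.05-fold, 1.34-fold and 1.19-fold lower. HSD17B8, a fatty acid synthesis reductase of mitochondria, had 19.4 and 32.2 with ID1 siRNA against 61.4 and 98.7 with control siRNA, and no fold is given.

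**Figure D3:**
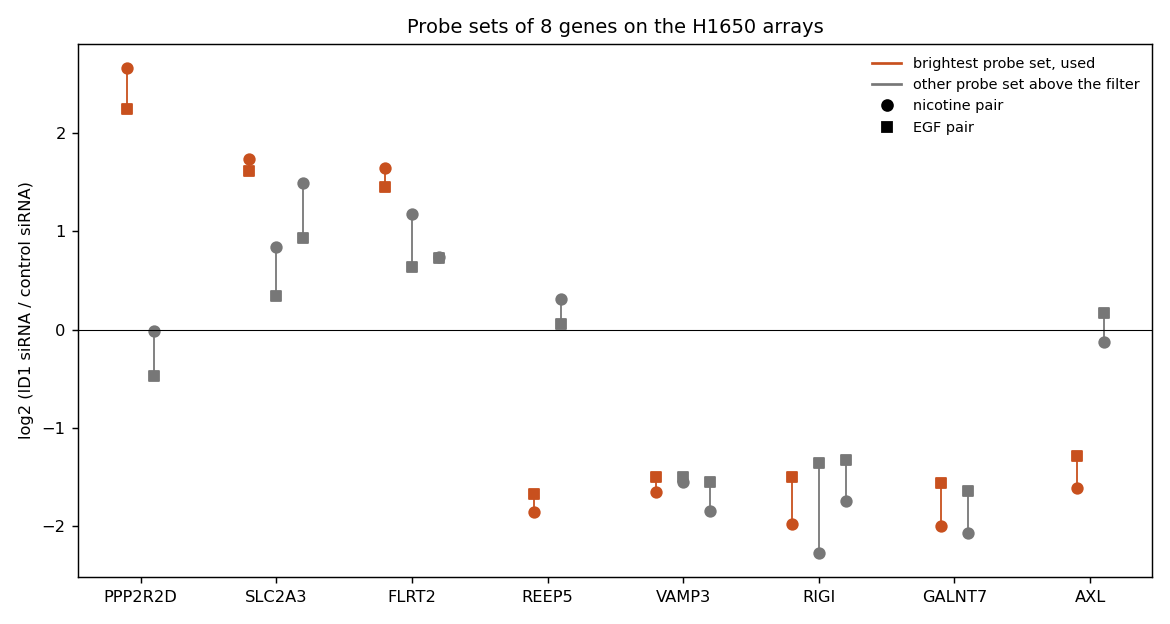
Log2 ratio of ID1 siRNA to control siRNA in the nicotine pair (circles) and the EGF pair (squares) for every probe set of 8 genes above the signal filter, the brightest and used one in orange. Probe sets of SLC2A3, FLRT2, VAMP3, RIGI and GALNT7 share a direction, whereas those of PPP2R2D, REEP5 and AXL do not.

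Of 30 targets of p53 tested 7 fell and 2 rose, beside 6.59% falling and 5.64% rising among all genes, with a median of -0.13. RRM2B, the p53-induced subunit of ribonucleotide reductase, had 465 and 518 with ID1 siRNA against 1327 and 1265 with control siRNA, and fell 2.64-fold (log2 change -1.401 ± 0.11). TP53INP1, a stress-induced partner of p53, had 170.3 and 189.5 with ID1 siRNA against 472 and 359 with control siRNA, and fell by 1.20 ± 0.18. Cyclin G1 (CCNG1) had 1617 and 1538 with ID1 siRNA against 3209 and 2953 with control siRNA, and fell by 0.96 ± 0.10. Each of these was separated between groups, and each was named because it passed on the same signals, which favours separation. Its share over all tested genes was not counted. EPHA2 fell by 0.62 ± 0.10, the growth arrest gene GADD45A by 0.51 ± 0.09, MDM2, the ligase that degrades p53, by 0.51 ± 0.11, and BAX, which opens mitochondria in apoptosis, by 0.46 ± 0.12. Dimmer probe sets of MDM2 included ones of opposite sign. PLK2 (0.47 ± 0.11) and GDF15 (0.54 ± 0.13) rose. In the BCL2 family 3 of 17 fell: the survival protein MCL1 by 0.68 ± 0.12, the mitophagy receptor BNIP3 by 0.58 ± 0.13, and BAX as given.

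The EGF and ERK list had 5 rising and 5 falling genes among 48 (5 and 3 without the H1650 EGF pair), with a median of -0.08. Among all genes 5.64% rose and 6.59% fell. AXL, a receptor tyrosine kinase known from EGFR inhibitor resistance, had 1201 and 1891 with ID1 siRNA against 3659.5 and 4609 with control siRNA, and fell by 1.45 ± 0.11. A dimmer AXL probe set was level, with 206 and 219.9 with ID1 siRNA against 224 and 195 with control siRNA. FGFR3 had 258 and 164 with ID1 siRNA against 127 and 76.5 with control siRNA, a rise of 1.06 ± 0.22. IGF1R rose by 0.80 ± 0.14. The EGFR ligand epiregulin (EREG) had 175 and 136 with ID1 siRNA against 61.9 and 76.2 with control siRNA, a rise of 1.16 ± 0.17, and NRG1, a ligand of ERBB3 and ERBB4, fell by 0.61 ± 0.15. Negative regulators that ERK signalling itself induces fell in 3 of 13 cases: the phosphatases DUSP7 by 0.79 ± 0.14 and DUSP5 by 0.60 ± 0.10, and the EGFR inhibitor ERRFI1 by 0.54 ± 0.10. Of 8 nicotinic receptor subunits tested 0 passed. CHRNB1 had 124 and 119 with ID1 siRNA against 169 and 153 with control siRNA.

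Proteases and their inhibitors moved unevenly, with 7 of 40 falling and 1 rising, beside 6.59% falling and 5.64% rising among all genes. Unlike MMP3, the collagenase MMP1 had 305 and 1290 with ID1 siRNA against 650.3 and 4553 with control siRNA, and fell by 1.46 ± 0.19, the groups overlapping because the EGF arrays were the brighter under either siRNA. The kallikrein KLK10 fell by 1.20 ± 0.22 and the sheddase ADAM10 by 0.43 ± 0.11. Of 15 inhibitors 4 fell. TIMP2, an inhibitor of matrix metalloproteases, had 5328 and 5461 with ID1 siRNA against 12647 and 10137 with control siRNA, and fell by 1.07 ± 0.13. TIMP1 fell by 0.91 ± 0.14, SERPINB1 by 0.83 ± 0.10 and cystatin C (CST3) by 0.79 ± 0.11, while dimmer CST3 probe sets were near 0.

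Epithelial and mesenchymal genes showed no common direction. Of 53 tested 5 rose and 3 fell (3 and 1 without the H1650 nicotine pair), with a median of 0.03. These and the counts below stand beside 5.64% rising and 6.59% falling among all genes. The claudins split, CLDN12 falling by 0.90 ± 0.10 and CLDN1 rising by 0.61 ± 0.11, and tricellulin (MARVELD2) fell by 0.60 ± 0.12. S100A4, a calcium-binding protein of migrating cells, had 752 and 455 with ID1 siRNA against 400 and 331 with control siRNA, a rise of 0.68 ± 0.14. The factor SNAI2 had 213 and 231 with ID1 siRNA against 173 and 141 with control siRNA, a change of 0.50 ± 0.31 that did not pass, and neither did any other of the 6 factors tested. Of 26 matrix and integrin genes 4 rose and 2 fell (4 and 5 without the H1650 EGF pair), among them the basement membrane collagens COL4A1 (0.66 ± 0.12) and COL4A5 (-0.68 ± 0.10), and COL6A1 (-0.68 ± 0.17). In the TGF-beta and BMP list 4 of 36 rose and 2 fell (2 and 0 without the H1650 nicotine pair): INHBB, a subunit of activin, rose by 0.70 ± 0.13, the matrix protein CCN1 by 0.54 ± 0.10, and the ubiquitin ligase SMURF2 fell by 0.50 ± 0.09.

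A549 received the same siRNA and stimuli, and its arrays share no sample with those of H1650. In A549 1714 genes rose and 1415 fell (13.7% and 11.3% of those tested). Of the genes that rose in H1650, 230 also rose in A549, which is 32.6% of the H1650 rises and 13.4% of the A549 rises. Of the falls, 309 were shared, 37.5% of those in H1650 and 21.8% of those in A549. Opposite calls were fewer than shared ones. Of the H1650 rises 85 fell in A549 (12%), beside 11.3% of all tested genes. Of the H1650 falls 121 rose in A549 (14.7%), beside 13.7% of all tested genes. Opposite calls were thus near the share over all genes. Tested as a difference between lines, the H1650 effect was above the A549 effect for 610 genes (4.87%) and below it for 863 (6.9%). When each array was centred on its median those counts became 1807 and 614, since the median change of all genes in A549 then became -0.23 rather than 0.05, so the balance of directions between lines depends on the scaling. Within H1650 alone centring gave 615 rises and 1118 falls.

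In the interferon list the lines were opposed. In H1650 50 of 93 fell and 0 rose, while in A549 79 rose and 0 fell, and the difference passed, with the H1650 effect below, for 79 genes. CMPK2 changed by -1.62 in H1650 and 4.19 in A549, a difference of -5.80 ± 0.19, and MX1 by -1.07 in H1650 and 3.84 in A549, a difference of -4.90 ± 0.15. Mitosis was the mirror of this, with 44 rising and 0 falling in H1650, 45 falling and 0 rising in A549, and 61 of 82 differences passing, all with H1650 higher. For replication 32 of 66 differences passed, again with H1650 higher. These list counts were not adjusted for the scaling above, whose shift between lines is smaller than the median differences of -2.57 (interferon), 0.83 (mitosis) and 0.63 (replication).

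**Figure D4:**
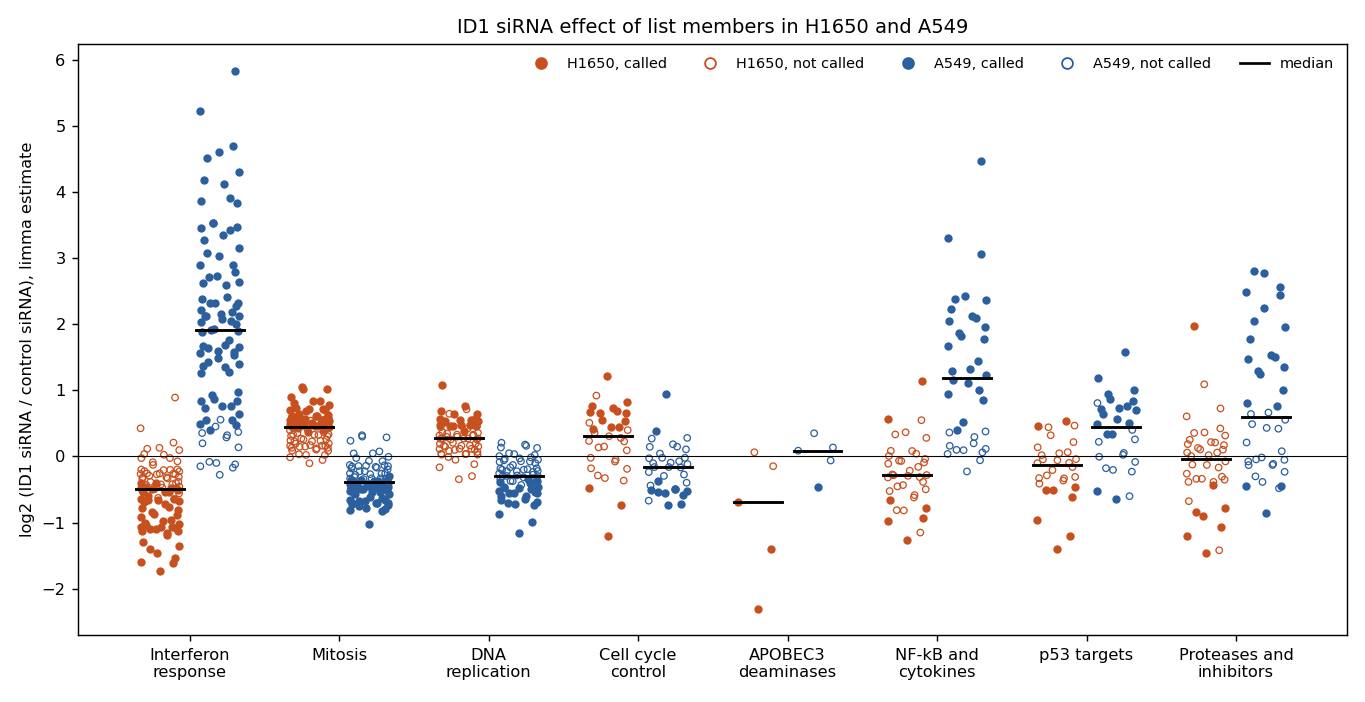
Log2 change with ID1 siRNA, as limma estimates, for the tested members of 8 gene lists in H1650 (orange, left) and A549 (blue, right). Filled points passed the test within the line and bars are medians. Interferon medians are -0.50 in H1650 and 1.91 in A549, and mitosis medians 0.45 in H1650 and -0.39 in A549.

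Other genes moved alike in the lines. ID1 changed by -2.40 in H1650 and -1.33 in A549, and this difference of -1.08 also passed. AXL changed by -1.45 and -1.50, VAMP3 by -1.58 and -1.65, REEP5 by -1.76 and -1.58, GALNT7 by -1.78 and -1.51, CCDC80 by 1.57 and 1.85 and FLRT2 by 1.55 and 1.55, H1650 before A549 in each case, and none of these differences passed. APOBEC3G changed by -2.30 in H1650, but in A549 it lay below the filter, with 27.1 and 38.6 with ID1 siRNA against 23.4 and 39.7 with control siRNA, so a fall could not be seen there. APOBEC3B changed by -1.402 in H1650 and -0.46 in A549. The p53 list had 7 falls and 2 rises in H1650, and 2 falls and 16 rises in A549.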

How the data were processed

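The deposited values are linear signal intensities, 1 per probe set of an Affymetrix U133 Plus 2.0 array, which the authors made with GCOS 1.4 and MAS5, per the submitters' processing notes. Although a log2 step is described in the labels, the deposited numbers are linear, and log2 was taken here. Of 54675 probe sets, 62 controls, 1801 with several symbols and 11721 without a gene were left out. A gene was represented by its brightest probe set over the 8 stimulated arrays. Of 19775 genes, the 12514 whose mean reached log2 6.08, the middle of the whole array, entered the test.

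The model was fitted to those 8 arrays by limma 3.58.1 (R 4.3.3), with 4 pairs of line and stimulus as blocks and an ID1 siRNA term per line (2 residual degrees of freedom), an intensity trend and Benjamini-Hochberg adjustment. The labels give no replicate numbers, and the pairing comes from the stimulus they name. In simulated data with 200 changed genes, 64.2% of 1.5-fold, 77.6% of 2-fold and 97.0% of 4-fold changes were recovered within H1650, and 8.09% of calls were false. The simulated noise was drawn from the variances of this same fit. The simulation therefore cannot test the intensity trend on which the calls lean. The number of arrays limits the precision.

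Genes were named by rule: ID1, up to 15 per direction by the smaller pair change, up to 4 called members per direction and role of 34 lists, and up to 10 per direction by the difference between lines. The text gives a selection of these. Members, lists and rule were chosen with earlier results of these data known. Alternatives covered scaling, added signal, filter, probe set choice, variance prior, block and left-out arrays.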

Additional observations from a re-analysis of the deposited data

Results flagged for a closer look

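The ID1 siRNA effect differed between H1650 and A549, by the test of the difference in limma, for 30 of the genes named by rank or by size of that difference. All values here are H1650 minus A549 on the log2 scale. These interferon-induced genes fell in H1650 and rose in A549: IFI44L (-6.77), XAF1 (-6.16), CMPK2 (-5.80), RSAD2 (-5.46), OAS2 (-5.38), IFITM1 (-5.31), RTP4 (-4.93), MX1 (-4.90), IFI44 (-4.78), LAMP3 (-4.54) and RIGI (-2.61). In A549 the control means of IFI44L, RSAD2 and RTP4 were under the filter on dim genes, which leaves the size of these 3 differences uncertain. EBI3 (-3.97) and PKDCC (-3.005) also went opposite ways. APOBEC3G (-2.39), HSD17B8 (-1.28), SOCS2 (-1.22), ID1 (-1.08) and FAM174A (-0.86) were lower in H1650 than in A549 relative to their controls. The ID1 siRNA means of EBI3, PKDCC and HSD17B8 in H1650 and all APOBEC3G signals in A549 were below the filter, so those sizes are uncertain too.

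Differences with H1650 higher were those of MPND (2.67), TMEM156 (2.63), LNCAROD (2.50), IKBKB-DT (2.42), TEX22 (2.37), P3H3 (2.29), ZNF143-AS1 (2.25), TMEM225B (2.17), DANCR (2.04), TAF15 (1.89), GPNMB (1.43) and PPP2R2D (1.20). TMEM156 and LNCAROD were below the signal filter in both H1650 groups, and in P3H3, MPND, TMEM225B, ZNF143-AS1, TEX22 and IKBKB-DT the control signals were, so those sizes are uncertain. DANCR, a noncoding RNA that hosts small nucleolar RNAs, had 1237 and 1732 with ID1 siRNA against 887 and 820.2 with control siRNA in H1650, and TAF15, an RNA-binding protein, 1818 and 1567 with ID1 siRNA against 1140 and 906 with control siRNA.

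Another 28 genes changed at least 2-fold in opposite directions under nicotine and EGF in H1650. This difference was not tested, since each condition has 1 array.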

How the results depend on the processing

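With the mean of all probe sets of a gene 294 genes rose and 292 fell in H1650, and without an intensity trend 1 and 0. With no replicate block, that is, without the stimulus pair, 463 rose and 564 fell. Leaving out 1 pair of arrays at a time gave 529 to 942 rises and 581 to 1038 falls. For the difference between lines the counts above and below were 397 and 639 without a filter, 247 and 388 with the mean of probe sets, 20 and 177 without the trend, and 372 and 572 without the block, while array-median centring gave 1807 above (74.6% of calls, against 41.4%). In H1650 centring left 35.5% of calls as rises, against 46.1%. Genes past 2-fold in both pairs numbered 407 up and 387 down without a filter, 33 up with the stricter filter, and 384 up and 456 down at 1.5-fold. Why the counts moved was not tested.

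Among lists, interferon falls numbered 20 with no replicate block, 30 with the mean of probe sets and 31 without the H1650 nicotine pair. Mitosis rises numbered 27 without the H1650 nicotine pair and 22 without the H1650 EGF pair, and replication rises 9 and 10. All 3 lists had 0 calls without the trend. Of 179 genes checked, 170 were called in the main fit. Of these calls 49 were lost without the block and 169 without the trend. With the mean of probe sets 169 of the 179 genes could be checked, and 69 lost their call. Over all settings 1 sign reversed: leaving out 1 pair at a time gave ID2 changes between -0.47 and 0.10, the highest without the H1650 EGF pair. Of 170 called genes named, 73 had another probe set above the filter, 13 of them with at least 1 of opposite sign. For 16 genes another probe set had the same sign but a much smaller change. In E2F3, for example, the mean change was -0.17 in a dimmer probe set and -0.73 in the one used.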

Other observations

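Some metabolic and translational genes moved as well, in lists whose counts stand beside 5.64% rising and 6.59% falling among all genes. Because the lists were chosen with earlier results of these data known, these counts are not a test. PHGDH, the first enzyme of serine synthesis, had 2355 and 2019 with ID1 siRNA against 1163 and 929.8 with control siRNA, and rose by 1.07 ± 0.10. STC2, a secreted stress-induced glycoprotein, had 2151 and 1764 with ID1 siRNA against 916 and 938 with control siRNA, and the glutamine transporter SLC1A5 rose by 0.54 ± 0.10. These were 3 rises of 30 genes in the serine and ATF4 list, with 1 fall (5 and 0 without the H1650 EGF pair). In lipid synthesis 3 of 27 fell, among them the sterol exporter ABCA1 (-0.73 ± 0.15) and the acetate-activating enzyme ACSS2, which fell more under EGF (-1.32) than under nicotine (-0.38). In glycolysis and hypoxia 1 of 35 rose and 3 fell, including PFKM (-0.45 ± 0.11) and ANGPTL4 (-0.53 ± 0.15). The NRF2 list was balanced, 3 of 24 rising, with HMOX1 at 0.44 ± 0.12 and ME1 at 0.48 ± 0.11, and 3 falling, with GSR at -0.36 ± 0.10, but 5 rose and 0 fell without the H1650 nicotine pair.

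Of 19 translation genes 2 fell, the termination factor GSPT1 (eRF3a) and its paralogue GSPT2. GSPT1 had 3895 and 5028 with ID1 siRNA against 9609.7 and 9926 with control siRNA, and the next brightest of its probe sets gave a mean change of -1.23, while 3 dimmer ones gave -0.11, 0.42 and -0.03. GSPT2 fell by 0.77 ± 0.12. Of 11 RNA interference genes the Argonautes AGO4 (-0.997 ± 0.16), AGO2 (-0.71 ± 0.14) and AGO1 (-0.62 ± 0.15) fell, although a dimmer AGO1 probe set had a mean change of 0.39. Stathmin (STMN1), which destabilises microtubules, rose by 0.70 ± 0.10 and the tubulin TUBB2A fell by 0.50 ± 0.12. NDUFB3 was the 1 respiratory chain gene of 27 that passed, with 2325 and 2692 with ID1 siRNA against 5001 and 4668 with control siRNA. Among the relatives of REEP5, RTN2 fell by 1.13 ± 0.16 and the brightest probe set of ATL3 rose by 0.63 ± 0.12, while its second went the other way in both pairs (mean change -0.54).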
